A study of Homo sapiens with 6 samples.

Results

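The nuclear receptor superfamily was examined in THP-1 cells, a human monocytic leukaemia line labelled as wild type, before and after treatment with phorbol 12-myristate 13-acetate (PMA), which drives these cells towards macrophages. The members were 46 receptor genes taken by name, of which 41 had a row among the 35042 genes of the expression table. THRB, NR1H4, NR2E1, NR0B1 and NR0B2 were not analysed here. The untreated group and the PMA group each held 3 libraries of oligo(dT)-selected RNA, and no label or method gives their PMA dose or time. All libraries came from 1 cell line, so the spread between them is that of separate samples of the same line, and bulk RNA cannot tell fewer expressing cells from less RNA per cell.

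Nuclear receptors are transcription factors with a DNA-binding domain and a ligand pocket, so that a small lipid-soluble molecule such as a steroid, a retinoid, a thyroid hormone, vitamin D, an oxysterol or a fatty acid can switch the gene activity of a cell. Many of them bind DNA as a pair with a retinoid X receptor (RXR). Without ligand, several recruit corepressors, and ligand exchanges these for coactivators. In monocytes and macrophages the family is known for control of lipid handling and inflammation, with the PPARs, the LXRs, the vitamin D receptor and the glucocorticoid receptor as the best described members.

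Summed counts per library ran from 61547700 to 88227830 in the untreated group and from 64361886 to 65698834 in the PMA group, and mitochondrial transcripts took 4.33% to 7.45% and 5.80% to 6.29% of them. PMA replicates 2 and 3 lay closer to each other, with a median absolute log2 difference of 0.0852 over the tested genes, than the other pairs within a group (0.126 to 0.222). Of 12 myeloid markers 10 were tested, 6 were called higher and 1 lower, and their summed level went from 1218 to 1237 CPM (counts relative to the total of the library) in untreated libraries to 2326 to 2419 CPM with PMA. SPI1, the defining transcription factor of the lineage, was at 99.8 and 124 FPKM, the macrophage colony-stimulating factor receptor CSF1R at 3.79 and 124, and the monocyte surface protein CD14 stayed under 1 in every library. CD33 was the 1 called lower, at 13.6 and 9.87 FPKM, and ITGAM was not called, at 2.15 and 2.10. MPO, which was not tested, was at 0.872 and 0.0743. The 8 fibroblast and endothelial markers, of which 6 had a row and 2 were tested and called higher, summed to 111 to 124 CPM without PMA and 1034 to 1175 CPM with it. Among them PECAM1, which monocytes and platelets also carry, was at 14.3 and 135 FPKM, VWF at 0.0031 and 1.24, and CDH5 at 0.075 and 0.041. VWF reached an FPKM of 1 in the PMA libraries alone and was tested through them. The 8 lymphoid markers, 4 of which had a row and 1 of which was tested and called higher, summed to 31.6 to 33.5 and 61.3 to 73.5 CPM. The 8 epithelial and liver markers, of which 1 was tested and not called, summed to 1.93 to 19.3 and 2.54 to 15.2 CPM, and the 6 erythroid and megakaryocyte markers with a row summed to 0.261 to 0.783 and 0.576 to 1.26 CPM. The part of these markers in the receptor results was not tested.

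The promoter windows of the PPARD, RARG and THRA genes are printed because these genes gave the largest rise, the next largest rise and the largest fall among the tested receptors. Each window holds the 250 bases before and the 50 bases after a RefSeq start site (GRCh38.p14), 5′ to 3′ on the strand of the gene, and capitals mark the GC box, GGGCGG or its reverse complement CCGCCC, the letters bound by Sp1-type factors. The PPARD window lies at chr6:35342308-35342607 on the plus strand, is 70.3% G and C, and its start site is the start of the gene as deposited. The RARG window lies at chr12:53232160-53232459 on the minus strand, is 68.0% G and C, and its start site is 712 bases inside the deposited start. The THRA window lies at chr17:40062715-40063014 on the plus strand, is 86.3% G and C, and its start site is 4675 bases inside the deposited start.
PPARD: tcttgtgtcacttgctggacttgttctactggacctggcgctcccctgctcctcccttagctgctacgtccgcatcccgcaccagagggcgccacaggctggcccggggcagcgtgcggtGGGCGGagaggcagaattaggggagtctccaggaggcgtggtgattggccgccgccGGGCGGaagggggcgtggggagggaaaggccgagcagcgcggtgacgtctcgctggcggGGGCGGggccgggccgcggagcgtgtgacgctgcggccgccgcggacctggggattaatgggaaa
RARG: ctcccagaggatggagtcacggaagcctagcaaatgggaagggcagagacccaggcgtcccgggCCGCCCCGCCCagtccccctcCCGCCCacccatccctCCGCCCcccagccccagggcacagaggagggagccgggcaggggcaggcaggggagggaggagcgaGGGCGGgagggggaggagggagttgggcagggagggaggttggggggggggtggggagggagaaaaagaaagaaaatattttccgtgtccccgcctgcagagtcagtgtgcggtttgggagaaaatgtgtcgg
THRA: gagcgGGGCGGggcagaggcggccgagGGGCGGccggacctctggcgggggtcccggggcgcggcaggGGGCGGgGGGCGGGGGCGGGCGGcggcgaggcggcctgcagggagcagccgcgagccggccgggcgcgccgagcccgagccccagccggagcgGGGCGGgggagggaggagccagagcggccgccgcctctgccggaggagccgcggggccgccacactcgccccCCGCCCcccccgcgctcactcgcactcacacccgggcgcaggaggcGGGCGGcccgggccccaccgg
The PPARD window held 3 GC boxes, the RARG window 5 and the THRA window 9, so the box stood in windows of receptors on both sides of the comparison. Windows were found for 41 of the 46 members, 17 of the tested ones among them, and matching was on both strands. The percents and the counts out of 90 below are per window. A tested member was counted if any of its windows held the letters, and some members have several windows. Counts of tested members are thus not comparable with the percents of windows. The GC box stood in 45 of the 90 windows of members with a row, against 44.95% of all 35116 windows, and among tested members in 5 of 6 called higher, 4 of 4 called lower and 6 of 7 not called. The AP-1 site TGANTCA, named for the factor family known to act downstream of phorbol esters, stood in 5 of the 90 windows against 7.709% of all windows, and among tested members in 2 of the 6 called higher (NR3C1 and NR2C1) and in none of the 4 called lower or the 7 not called. The receptor half-site AGGTCA stood in 13 of the 90 windows against 13.83% of all windows, and the E-box CACGTG of the clock factors in 9 against 7.256%. The cyclic AMP element TGACGTCA was in 1 window of the 90 against 1.848%, and CCAAT in 34 against 34.61%. A match is a stretch of letters and was not examined for binding.

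Of the 41 receptors with a row, 21 reached the minimum for testing, an FPKM (fragments scaled to gene length and to library size) of at least 1 in at least 3 libraries, and 9 of these were higher and 5 lower after PMA while 7 were not called (edgeR quasi-likelihood test, Benjamini-Hochberg adjusted p under 0.05 over the 12947 genes tested). The higher ones were PPARD, RARG, NR4A2, NR3C1, HNF4G, PPARA, NR1H2, NR2C1 and VDR, and the lower ones THRA, NR2F2, NR2F6, NR1D1 and NR1H3. Over all genes tested 32.7% were called higher and 32.8% lower, against 42.9% and 23.8% of the 21 receptors, and 65.5% were called in either direction against 66.7%, so the share of receptors that changed was near that of all genes. RARG and NR4A2 reached the minimum through the PMA libraries alone, and no receptor through the untreated libraries alone. A change of at least 2-fold was seen in 4 receptors called higher, RARG and NR4A2 among them, and 1 called lower, where 14.5% and 8.38% of all genes tested made such a change. The median log2 fold change was 0.29 over the tested receptors and -0.01 over all genes tested. In FPKM, the 3 PMA libraries lay above the 3 untreated ones for 10 tested receptors and below them for 5, and the groups overlapped for 6, against 33.7% and 36.7% of all genes tested for the 2 directions without overlap. RARG and NR4A2 were among the 10, and their lack of overlap was fixed by how they reached the minimum.

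**Figure D1:**
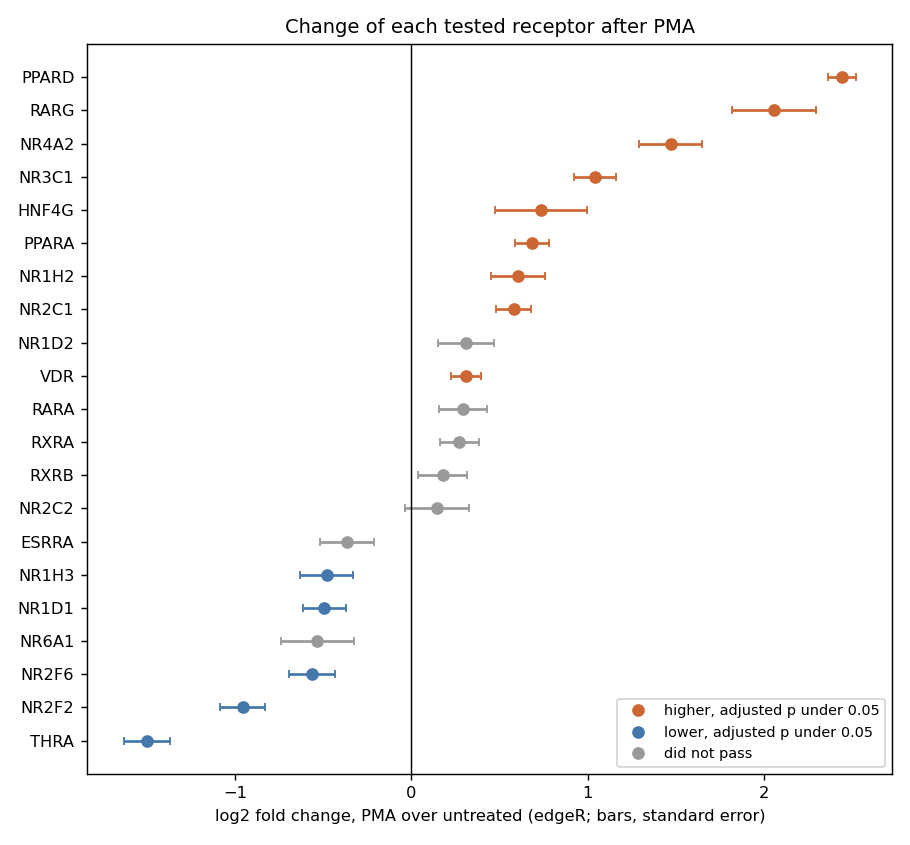
Log2 fold change of each of the 21 tested receptors, PMA over untreated, from edgeR on the counts. Points are estimates and bars 1 standard error on each side, with orange for called higher, blue for called lower and grey for not called. PPARD stands at the top at 2.44 and THRA at the bottom at -1.50.

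The order of the receptors by level differed between the groups, and PPARD took the first place after PMA. In untreated cells the 10 highest receptors, from RXRB with a mean of 14.2 FPKM over ESRRA (12.8) and RXRA (11.8) down to PPARD (7.35), formed a run in which each overlapped the next in its libraries. PPARD was the last of that run and did not overlap NR1D1 below it. In PMA-treated cells PPARD was first with 39.1 FPKM and overlapped no other receptor, and RXRB (15.6), NR3C1 (15.5) and RXRA (13.9) followed with levels that overlapped each other in turn. THRA went from rank 4 to rank 14 of the 41. The FPKM of all 41 receptors summed to 124 ± 7.74 (SD, n = 3) in untreated and 166 ± 3.47 (n = 3) in PMA libraries, and the 2 groups did not overlap. PPARD made up 5.93% ± 0.628 of that sum without PMA and 23.6% ± 0.653 with it.

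**Figure D2:**
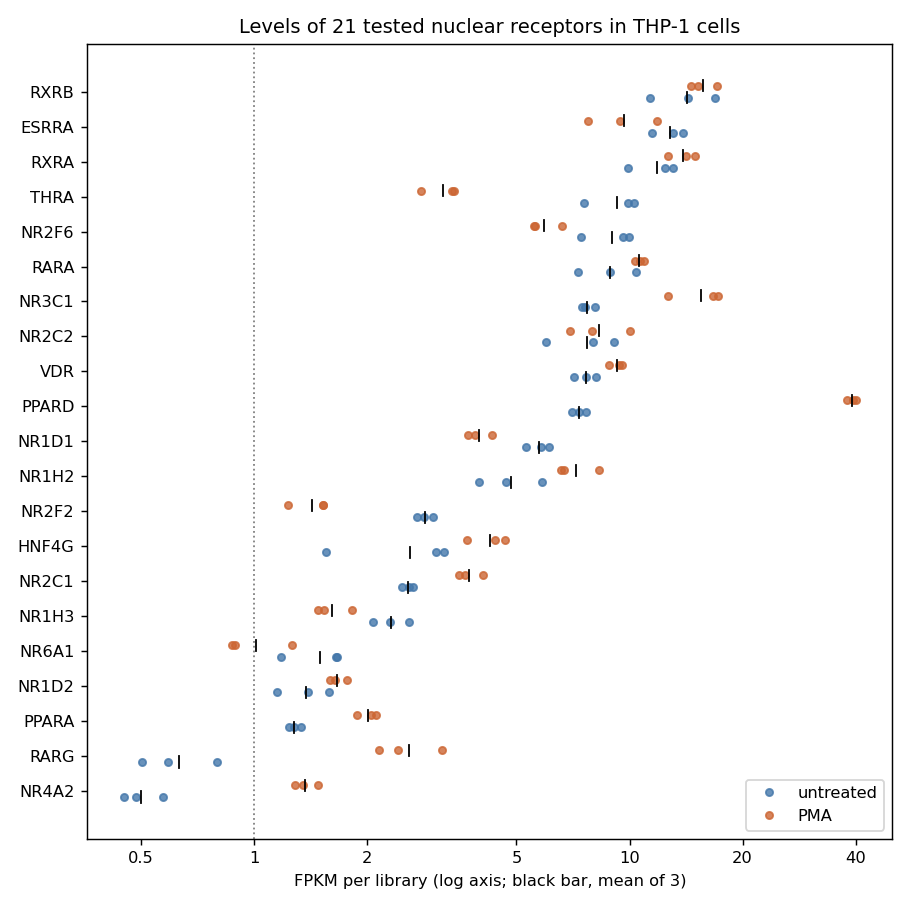
FPKM of the 21 tested receptors in each library on a log axis, with untreated libraries in blue, PMA libraries in orange and the mean of each 3 as a black bar. The dotted line is the FPKM of 1 used as the minimum. The PMA points of PPARD, from 37.8 to 40.1, lie to the right of every other point.

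Among the lipid sensors, the receptors of fatty acids and oxysterols, PPARD, PPARA and NR1H2 rose and NR1H3 fell, and these were the 4 of the 8 listed that could be tested. PPARD (peroxisome proliferator-activated receptor delta, chromosome 6, bases 35342558 to 35428191 of hg38, plus strand) senses fatty acids and drives their oxidation. It was at 7.02, 7.34 and 7.68 FPKM in the untreated libraries and at 39.4, 37.8 and 40.1 in the PMA libraries. The 6 libraries fell into 2 narrow bands far apart, a 5.44-fold rise (log2 fold change 2.44, SE 0.08, adjusted p = 2.48e-07). Over the 17 alternative settings its log2 fold change ran from 2.26 to 2.49.

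PPARA, the family member known for fasting fat oxidation in liver, was at 1.28, 1.24 and 1.33 FPKM without PMA and 1.88, 2.12 and 2.05 with it. The groups stood apart, and the log2 fold change was 0.69 (SE 0.10, adjusted p = 0.000433). PPARG, the receptor of fat cells and alveolar macrophages, was under the minimum, at 0.0963, 0.0201 and 0.0312 FPKM in untreated and 0.298, 0.221 and 0.270 in PMA libraries. Without overlap between the groups, its level was the lowest of the 3 PPAR genes in both. In the edgeR fit on all 35042 genes with no FPKM minimum, which called 13.9% of genes higher and 14.6% lower, its log2 fold change was 2.29 (SE 0.54, adjusted p = 0.0143). That call was lost without untreated replicate 3 (adjusted p = 0.0651), PMA replicate 1 (0.0524) or PMA replicate 3 (0.0599), within a range of 1.9e-05 to 0.0651 over 15 alternatives.

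NR1H2 and NR1H3 encode LXR beta and LXR alpha, the oxysterol receptors that switch on cholesterol export, and they moved in opposite directions. NR1H2 was at 5.84, 4.70 and 3.98 FPKM without PMA and 8.27, 6.56 and 6.71 with it (log2 fold change 0.61, SE 0.15, adjusted p = 0.00852). The lowest PMA library stood above the highest untreated one. NR1H3, the form best known from macrophages and liver, was at 2.59, 2.07 and 2.30 FPKM without PMA and 1.82, 1.49 and 1.54 with it (log2 fold change -0.48, SE 0.15, adjusted p = 0.0217). Its 2 groups did not overlap either, but the call of NR1H3 was lost without untreated replicate 1 (adjusted p = 0.0723), untreated replicate 3 (0.0503), PMA replicate 2 (0.0778) or PMA replicate 3 (0.0682) and with these last 2 libraries added together (0.0686), and over all alternatives the adjusted p ran from 0.00171 to 0.0778. Use of strand in the counting is not stated, and NR1H3 shares 541 bases with ACP2 and NR1H2 11011 bases with NAPSB, both on the opposite strand. NAPSB was at 3.01 FPKM in untreated and 0.976 in PMA cells, and ACP2 at 4.49 and 7.89.

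The xenobiotic sensors NR1I3 and NR1I2, which in liver switch on drug-metabolizing enzymes, were under the minimum. NR1I3 was at 0.246, 0.297 and 0.150 FPKM without PMA and 0.451, 0.500 and 0.549 with it, and in the fit with no minimum its log2 fold change of 1.00 (SE 0.32) had an adjusted p of 0.0526. NR1I3 was called higher under 4 of 15 alternatives, namely upper-quartile factors (1.05, adjusted p = 0.0444), limma with a pseudocount of 1 (0.29, 0.026) or 0.1 (0.88, 0.0498) and DESeq2 (1.02, 0.0246). It shares 1079 bases on the opposite strand with TOMM40L, whose level of 32.8 and 28.5 FPKM was far above it. NR1I2 stayed under 0.1 FPKM as a mean of either group.

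Of the retinoid, thyroid hormone and vitamin D receptors, RARG and VDR rose, THRA fell and RARA was not called. RARG (retinoic acid receptor gamma, chromosome 12, bases 53210567 to 53232921, minus strand) binds retinoic acid as a pair with RXR. It was at 0.589, 0.502 and 0.798 FPKM in untreated and 3.18, 2.42 and 2.15 in PMA libraries. It was tested through the PMA libraries alone, which fixed that the groups stood apart at an FPKM of 1. The rise was 4.17-fold (log2 fold change 2.06, SE 0.24, adjusted p = 0.00014). Its log2 value ran from 0.89, on the log2(FPKM + 1) scale, to 2.28 over the alternatives. RARA, the form rearranged in acute promyelocytic leukaemia, was at 7.31, 8.89 and 10.4 FPKM without PMA and 10.3, 10.6 and 10.9 with it. The groups overlapped at their edge, and the log2 fold change of 0.29 (SE 0.13) had an adjusted p of 0.0879. Without untreated replicate 3, the library with the highest untreated level, RARA was called at 0.44 (adjusted p = 0.0103, range over the alternatives 0.0103 to 0.426), and it was called under 3 of the 17 alternatives in all. RARB stayed under 0.1 FPKM.

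THRA (thyroid hormone receptor alpha, chromosome 17, bases 40058290 to 40093867, plus strand) binds the thyroid hormone T3. It was at 10.3, 9.88 and 7.58 FPKM in untreated and 3.42, 3.36 and 2.78 in PMA libraries. Every PMA library was under the lowest untreated one, a 2.83-fold fall (log2 fold change -1.50, SE 0.13, adjusted p = 3.34e-05) that ran from -1.65 to -1.29 over the alternatives. Its 3′ end lies across that of NR1D1 on the opposite strand over 1075 bases, so some counts of the 2 genes cannot be told apart if strand was not used. NR1D1 was also lower after PMA.

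VDR, the receptor of active vitamin D and a known driver of monocyte differentiation, was at 7.12, 8.14 and 7.68 FPKM without PMA and 9.36, 8.84 and 9.56 with it. The groups stood apart by a small gap, and the log2 fold change was 0.31 (SE 0.08, adjusted p = 0.0121). The call of VDR was lost without PMA replicate 3 (0.29, adjusted p = 0.0504), under DESeq2 (0.18, 0.164) and with no FPKM minimum (0.16, 0.202), with a range of 0.00208 to 0.202.

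The steroid receptors were represented above the minimum by NR3C1 alone, and it rose. NR3C1, the glucocorticoid receptor (chromosome 5, bases 143277931 to 143435512, minus strand), binds cortisol and its drug analogues and represses inflammatory genes. It was at 7.47, 8.07 and 7.61 FPKM in the untreated libraries and at 12.7, 16.7 and 17.2 in the PMA libraries. PMA replicate 1 stood under the other two PMA libraries and still above every untreated one, and the log2 fold change was 1.04 (SE 0.12, adjusted p = 0.00013), from 0.89 to 1.17 over the alternatives. PGR, the progesterone receptor, was under the minimum at 0.274, 0.248 and 0.300 FPKM without PMA and 0.565, 0.667 and 0.630 with it. Its groups stood apart, with a log2 fold change of 1.06 (SE 0.15, adjusted p = 0.00116) in the fit with no minimum. The call of PGR was lost under 1 of 15 alternatives, limma on quantile-normalized log2(FPKM + 1) values (0.18, adjusted p = 0.0936). NR3C2, the aldosterone receptor, was at 0.0506, 0.0163 and 0.00949 FPKM and 0.0486, 0.150 and 0.155, with overlap (adjusted p = 0.0745 in the fit with no minimum). NR3C2 was called higher under 2 of 15 alternatives, without untreated replicate 1 (3.01, adjusted p = 0.0196) and under DESeq2 (2.10, 0.0208). The estrogen receptors ESR1 and ESR2 stayed under 0.1 FPKM.

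The RXR dimer partners were among the most abundant receptors in both groups and neither of the 2 tested was called. RXRA was at 13.1, 12.4 and 9.93 FPKM without PMA and 15.0, 12.7 and 14.1 with it, and RXRB at 16.9, 14.3 and 11.4 and 17.1, 15.2 and 14.6. The groups of both overlapped, with log2 fold changes of 0.27 (SE 0.11, adjusted p = 0.058) for RXRA and 0.18 (SE 0.14, adjusted p = 0.285) for RXRB. RXRA was called higher under 7 of the 17 alternatives, among them fits without untreated replicate 1 (0.35, adjusted p = 0.0308) or PMA replicate 2 (0.34, 0.0494), in a range of 0.0125 to 0.457, and RXRB under 2 of the 17, among them the fit without untreated replicate 1 (0.32, 0.0473), in a range of 0.0365 to 0.912. RXRB shares 361 bases on the opposite strand with SLC39A7, which was at 46.2 FPKM in untreated and 32.1 in PMA cells. RXRG stayed under 0.1 FPKM. The sum of the 3 RXR genes was 26.0 ± 4.40 FPKM without PMA and 29.6 ± 2.28 with it (SD, n = 3 each), with overlap, while the PPAR sum went from 8.68 ± 0.330 to 41.4 ± 1.11. The mean PPAR sum was thus under that of the RXR genes in untreated cells and above it after PMA.

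The REV-ERB receptors NR1D1 and NR1D2 are haem-binding repressors of the circadian clock, and NR1D1 fell while NR1D2 was not called. NR1D1 was at 6.09, 5.29 and 5.80 FPKM without PMA and 4.30, 3.88 and 3.72 with it (log2 fold change -0.49, SE 0.12, adjusted p = 0.00757). The groups did not overlap, and the call held under all 17 alternatives. NR1D2 was at 1.59, 1.15 and 1.40 FPKM and 1.59, 1.77 and 1.64, groups that only just missed each other (0.31, SE 0.16, adjusted p = 0.114). RORB, an activator at the same DNA elements, was at 0.132, 0.126 and 0.137 FPKM without PMA and 0.101, 0.289 and 0.251 with it, with overlap, and RORA stayed under 0.1. RORB was not called in the fit with no minimum (0.58, adjusted p = 0.31). It was called higher under 1 of 15 alternatives, the fit without PMA replicate 1 (0.91, adjusted p = 0.0324).

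The NR4A receptors, early response factors that act without a known hormone, changed in their makeup. NR4A2 (NURR1) was at 0.571, 0.484 and 0.450 FPKM without PMA and 1.48, 1.35 and 1.29 with it, a log2 fold change of 1.47 (SE 0.18, adjusted p = 0.000179). NR4A2 was tested through the PMA libraries alone, which fixed that its groups stood apart. Its call held under the 16 alternatives that tested it. NR4A3 (NOR1) never reached an FPKM of 1, but its counts were 6, 4 and 10 in the untreated and 249, 361 and 352 in the PMA libraries. With levels of 0.0114, 0.00695 and 0.0230 FPKM against 0.577, 0.859 and 0.830, its mean was 54.9 times higher after PMA, and the fit with no minimum gave a log2 fold change of 5.62 (SE 0.46, adjusted p = 6.7e-05), the call holding under all 15 alternatives. NR4A1 (NUR77) was at 0.514, 0.438 and 0.499 FPKM without PMA and 0.338, 0.285 and 0.213 with it.

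Every PMA library thus lay under every untreated one for NR4A1, with a log2 fold change of -0.90 (SE 0.24, adjusted p = 0.0225) in the fit with no minimum. The call of NR4A1 was lost without untreated replicate 1 (adjusted p = 0.0567), untreated replicate 3 (0.0561), PMA replicate 2 (0.0627) or PMA replicate 3 (0.0669) and with PMA replicates 2 and 3 added together (0.0617), and under 7 of 15 alternatives in all, in a range of 0.00382 to 0.0928. As shares of their summed FPKM, NR4A1 took 48.4% ± 2.495 of the 3 NR4A genes without PMA and 11.6% ± 2.48 with it, and NR4A3 1.38% ± 0.862 and 31.4% ± 6.35 (SD, n = 3 each). NR4A2 held 50.2% and 57.1%.

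**Figure D3:**
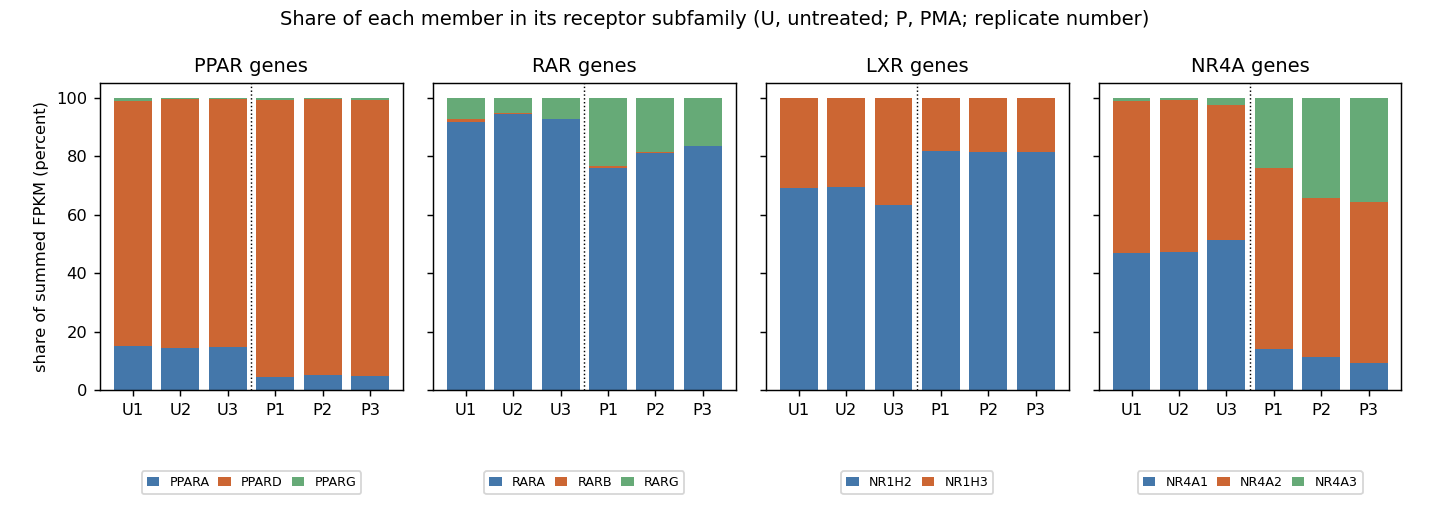
Share of each gene in the summed FPKM of its subfamily, in percent, for each of the 3 untreated (U) and 3 PMA (P) libraries. The panels show the PPAR, RAR, LXR and NR4A genes. The NR4A1 segment is at 46.9% to 51.3% in the untreated and 9.13% to 14.1% in the PMA libraries.

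The same reckoning showed PPARD at 84.6% ± 0.886 of the PPAR sum without PMA and 94.5% ± 0.293 with it. RARG made up 6.62% ± 1.11 of the RAR sum and then 19.4% ± 3.58, beside RARA with 93.0% and 80.3%. NR1H2 held 67.3% ± 3.46 of the LXR sum without PMA and 81.6% ± 0.294 with it, and the LXR sum itself, at 7.16 and 8.80 FPKM, overlapped between the groups. In each of these subfamilies the member with the larger share in untreated cells also had the larger share after PMA.

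Of the orphan receptors, named for the lack of an agreed hormone, 7 of 15 were tested and 2 rose, 2 fell and 3 were not called. NR2F2 (COUP-TFII), a regulator of vessel and organ development, was at 2.99, 2.72 and 2.83 FPKM without PMA and 1.53, 1.53 and 1.23 with it, a 1.94-fold fall (log2 fold change -0.96, SE 0.13, adjusted p = 0.000305). NR2F6 (EAR2), its relative, was at 9.59, 9.95 and 7.44 FPKM and 6.60, 5.58 and 5.59 (log2 fold change -0.57, SE 0.13, adjusted p = 0.00605). Both kept every PMA library under every untreated one. The third relative, NR2F1, was under the minimum at 0.566, 0.311 and 0.350 FPKM without PMA and 0.878, 0.426 and 0.573 with it, and its groups overlapped (0.51, adjusted p = 0.327).

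NR2C1 (TR2) was at 2.65, 2.58 and 2.47 FPKM without PMA and 3.65, 4.08 and 3.52 with it, a log2 fold change of 0.58 (SE 0.10, adjusted p = 0.0011). Its groups stood apart. Its partner NR2C2 (TR4) was at 9.10, 5.98 and 8.01 FPKM and 7.92, 10.1 and 6.96, overlapping across nearly the whole range (0.14, SE 0.18, adjusted p = 0.512), and shares 39663 bases with MRPS25 on the opposite strand, which was at 8.88 and 5.12 FPKM. HNF4G, a relative of the liver factor HNF4A, was at 3.21, 1.55 and 3.06 FPKM without PMA and 3.69, 4.67 and 4.39 with it (log2 fold change 0.74, SE 0.26, adjusted p = 0.0376). Untreated replicate 2 stood far under the other two, and the call of HNF4G was lost without PMA replicate 2 (adjusted p = 0.0985) or PMA replicate 3 (0.0876) and with both added together (0.0879), and under 6 of 17 alternatives in all, in a range of 0.0211 to 0.143. HNF4A itself had 16 counts in PMA replicate 1 and none in any other library.

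ESRRA (estrogen-related receptor alpha), a driver of mitochondrial genes, was at 13.9, 13.1 and 11.5 FPKM without PMA and 11.9, 7.76 and 9.43 with it. PMA replicate 1 overlapped the untreated group, and the log2 fold change was -0.37 (SE 0.15, adjusted p = 0.067). ESRRA was called lower under 8 of the 17 alternatives, among them the fit without that library (-0.54, adjusted p = 0.00421), GC correction (-0.33, 0.0191), DESeq2 (-0.49, 0.0086) and no minimum (-0.51, 0.0465), in a range of 0.00421 to 0.193. It shares 279 bases on the opposite strand with TRMT112, which was at 27.0 FPKM in untreated and 17.3 in PMA cells. NR6A1 (GCNF), a germ cell factor, was at 1.18, 1.66 and 1.65 FPKM and 0.892, 0.875 and 1.26, with overlap (-0.53, SE 0.21, adjusted p = 0.0505). NR6A1 was called lower under 9 of the 17 alternatives, among them DESeq2 (-0.66, adjusted p = 0.00712), the fit with no minimum (-0.68, 0.0395), and fits without untreated replicate 1 (-0.68, 0.0216) or PMA replicate 3 (-0.73, 0.0206), in a range of 0.00661 to 0.148.

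The 20 receptors with a row that were not tested had single-library levels from 0 to 0.878 FPKM, and in the fit with no minimum 6 of them were called higher (PGR, PPARG, NR4A3, ESRRB, NR5A1 and NR5A2), 1 lower (NR4A1) and 13 not. Of all 35042 genes that fit called 13.9% higher and 14.6% lower. NR5A1 (SF-1), the steroidogenic factor of adrenal gland and gonad, had no counts in any untreated library and 28, 18 and 34 in the PMA libraries. Set against a floor of 12 counts over the untreated group it was at least 8.02-fold higher (adjusted p = 0.00314), at a level of 0.0751 to 0.148 FPKM. NR5A2 (LRH-1) was at 0, 0 and 0.0162 FPKM without PMA and 0.0631, 0.141 and 0.158 with it (adjusted p = 0.0293), and lost its call without untreated replicate 2 (0.058) or PMA replicate 1 (0.0517), 2 (0.0845) or 3 (0.121) and under 5 of 15 alternatives in all. ESRRB was at 0.0643, 0.0517 and 0.0738 FPKM and 0.273, 0.153 and 0.140 (adjusted p = 0.032), and was not called without untreated replicate 1 (0.0703), 2 (0.0939) or 3 (0.0529) or PMA replicate 1 (0.0924) or 2 (0.0517), and under 10 of 15 alternatives in all. Of the 20, 9 had a mean under 0.1 FPKM in both groups, namely ESR1, ESR2, RARB, NR1I2, RXRG, RORA, HNF4A, NR2E3 and ESRRG.

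The genes that work around the receptors were read from 15 lists holding 193 genes, 133 of them tested, of which 51 were higher and 50 lower. Some genes stand in more than 1 list, and the single values given in brackets are log2 fold changes. The corepressors had 5 higher and 3 lower of 11 tested, with a median log2 fold change of 0.08. BCL6, a repressor that binds PPARD, rose most (3.75, from 0.540 to 7.14 FPKM) and was tested through the PMA libraries alone, followed by NRIP1 (1.02), while GPS2 (-0.75) and SIN3A (-0.35) were lower. The calls of GPS2 and SIN3A were lost without single libraries: GPS2 without untreated replicate 1 (adjusted p = 0.062), untreated replicate 3 (0.118) or PMA replicate 2 (0.0562), SIN3A without untreated replicate 2 (0.0711) or 3 (0.0763). NCOR1, a main corepressor of unliganded receptors, was at 8.40 and 10.9 FPKM (higher, 0.41).

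Coactivators had 8 higher and 4 lower of 14 tested, median 0.32. NCOA7 rose most, from 2.95 ± 0.0393 to 26.7 ± 2.57 FPKM (SD, n = 3 each, log2 fold change 3.21), and then NCOA3 (SRC-3), from 2.90 ± 0.0551 to 16.5 ± 2.74 (2.54). The arginine methyltransferases PRMT1 (-1.14) and CARM1 (-1.01), which modify histones at receptor-bound genes, fell. The chaperones that hold steroid receptors ready for hormone had 10 lower of 11 tested and none higher, with a median of -0.54. Their largest falls were in FKBP4 (-1.61, from 43.9 to 14.0 FPKM), the FK506-binding protein that aids receptor transport, and BAG1 (-0.85).

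Ligand metabolism moved gene by gene. Of 7 tested retinoid genes 2 rose and 2 fell (median 0.26), with DHRS3, which reduces retinal to retinol, at 0.0873 and 4.10 FPKM (5.56, tested through the PMA libraries alone) and DHRS9 at 18.4 and 64.1 (1.83), and with FABP5 (-0.67), a carrier of fatty acids and retinoic acid, and RDH10 (-0.49) lower. CYP26A1, the retinoic acid hydroxylase, was not tested and was at 1.13 and 0.292 FPKM, a gene picked after its values were seen. Of 9 tested steroid genes 5 rose, 2 of them tested through the PMA libraries alone, and 1 fell (median 0.42). CYP19A1 (aromatase), which makes estrogens, was at 1.30 ± 0.290 and 46.2 ± 2.70 FPKM (5.18), SRD5A1 rose by 1.45 through the PMA libraries alone, and SRD5A3 fell by 0.75, both on the log2 scale. CYP2R1, a vitamin D 25-hydroxylase, rose (0.83) and was 1 of 2 tested vitamin D genes. The thyroid hormone transporter SLC16A10 (MCT10), tested through the untreated libraries alone, was lower (-1.98). The 1 tested gene of the oxysterol and bile acid list, EBP, was lower (-0.69).

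Known target genes of the receptors were counted in the same way. Glucocorticoid receptor targets had 10 higher and 1 lower of 15 tested (median 0.64), led by SGK1 (4.33) and TNFAIP3 (4.20), both tested through the PMA libraries alone, with FKBP5 lower (-0.52). RAR targets had 4 higher and none lower of 5 tested, from 16 listed (median 1.02). Of the 5, 2 were tested through the PMA libraries alone, and DHRS3 again and TGM2 (2.71) stood in front. Untested RAR targets went both ways in mean FPKM, such as CYP26A1 (1.13 and 0.292) and PLAAT4 (0.103 and 0.625), picked after their values were seen. VDR targets had 3 higher and none lower of 5 tested, from 14 listed (median 0.28), with HBEGF at 2.01 and FUCA1 at 0.60. Untested VDR targets also went both ways, such as CAMP (0.985 and 0.180 FPKM) and CD14 (0.336 and 0.708), likewise picked after their values were seen.

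LXR targets had 3 higher and 7 lower of 14 (median -0.37), with NR1H3 itself in the list and among the lower. APOE (2.83), the lipoprotein that carries cholesterol out of macrophages, and the cholesterol pump ABCA1 (2.08) rose, and APOC1 (-1.27) and LPL (-1.02) fell. ABCA1 was tested through the PMA libraries alone and APOC1 through the untreated libraries alone. PPAR targets had 4 higher and 9 lower of 14 (median -0.36), with TGM2, tested through the PMA libraries alone, and PLIN2 (0.38), a coat protein of lipid droplets, higher, and catalase (CAT, -2.09, from 104 to 23.9 FPKM) and LPL lower. Targets of ESRRA had 1 higher and 10 lower of 14 (median -0.62), with ACADM higher (0.34) and CYCS (-1.003) and ATP5F1B (-0.77), both of the respiratory chain and its ATP synthase, lower. Clock genes had 9 higher and 3 lower of 16 (median 0.31), led by BHLHE40 (3.06) and NFIL3 (1.75), with DBP (-1.53, tested through the untreated libraries alone) and TIMELESS (-0.61) lower. All these calls stand beside the 32.7% and 32.8% of all genes tested that were called in each direction.

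**Figure D4:**
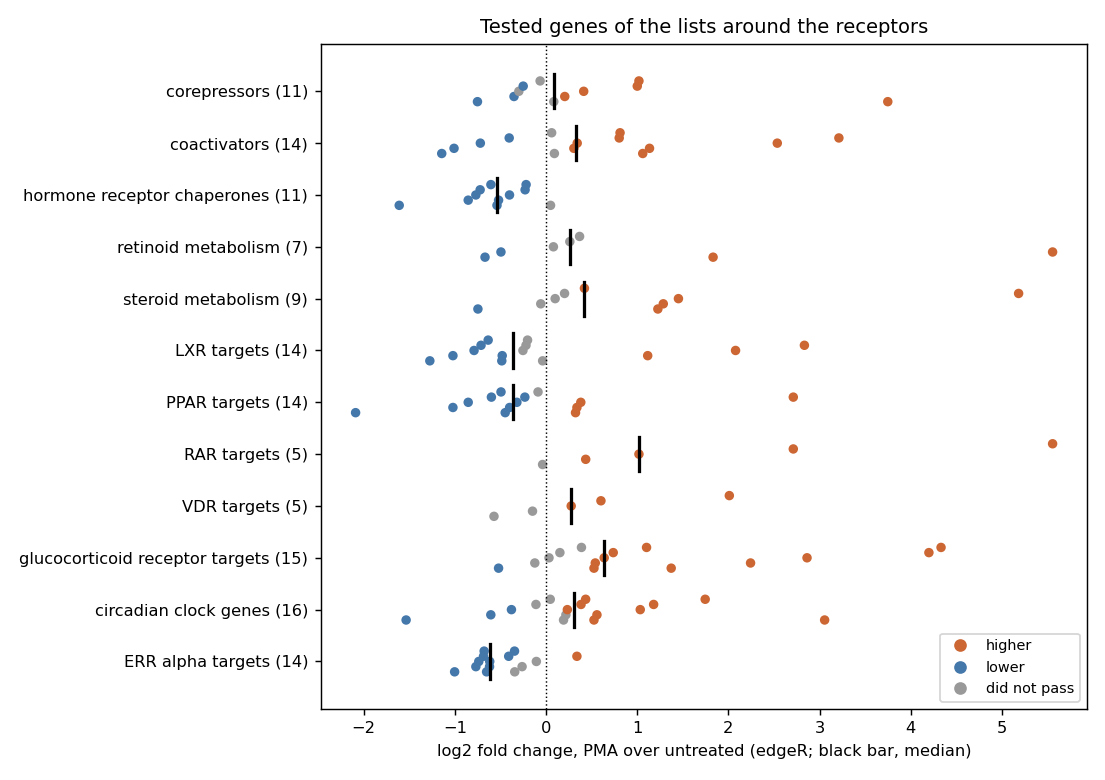
Log2 fold change, PMA over untreated, of each tested gene in 12 lists around the receptors, with the number tested in brackets and the median as a black bar. Orange points were called higher, blue lower and grey not called. All 10 called chaperones lie to the left of 0.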

How the data were processed

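RNA-seq of THP-1 cells was analysed, 3 untreated and 3 PMA libraries read as 2 × 150 base pairs. The authors deposited estimated counts, not scaled, and FPKM values, scaled to gene length and library size, in 1 table. The notes of the submitters on processing give hg38 and DESeq2, and no source used here states the counting tool or whether it used strand. Low counts pile up at multiples of 4 (37.3% to 39.2% of counts from 3 to 22), so a floor of 12 counts was taken for a group with none, and such bounds cover counting error only. Of 35424 rows, 382 repeat names were left out. edgeR 4.0.16 (R 4.3.3) was run on the rounded estimated counts with TMM factors (0.9845 to 1.0211), on genes that reached an FPKM of 1 in 3 or more libraries. A standard error is the fold change over the root of F. FPKM and promoter windows were read as given. DESeq2 1.42.0, limma 3.58.1, other scalings and filters, a replicate block, GC correction (GENCODE 44) and leaving out each library were alternatives. Every member was accounted for, and of each list the 2 largest called rises and falls were named, except list genes not reported here. The members and lists were chosen with earlier results of these data known. A figure legend of the study calls the replicates independent experiments but no label says so, and p-values then measure the spread between libraries. Code was tested on simulated data.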

Additional observations from a re-analysis of the deposited data

How the results depend on the processing

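Of the 14 receptors called, 10 kept their call under all alternatives that tested them, and VDR, NR1H2, NR1H3 and HNF4G lost it under at least 1. Of the 7 not called, 5 were called under some alternative, and NR1D2 and NR2C2 under none. DESeq2 and the edgeR fit with no minimum took in all 35042 genes and so could call receptors under the FPKM minimum. DESeq2 called 16 receptors higher and 8 lower, and edgeR with no minimum 12 and 8, against 9 and 5. Of all genes, DESeq2 called 5771 higher and 5476 lower, and edgeR with no minimum 4855 and 5099, against 4232 and 4253. These fits placed the log2 fold changes of the tested genes 0.126 and 0.147 lower at the median, and the other settings moved them by under 0.04. NR1H2 lost its call with no minimum (0.46, adjusted p = 0.0671), and HNF4G with GC correction (0.65, 0.0585) too. Leaving out each library in turn gave 7 to 11 receptors higher and 4 to 6 lower, 3794 to 4359 and 3697 to 4449 of all genes against 4232 and 4253, and 46 to 52 and 43 to 53 of the list genes against 51 and 50.

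The replicate numbers were the same in both groups. Deviations from the group means of same-numbered libraries correlated at 0.355, 0.0199 and 0.0102, and those of differently numbered ones at -0.24 to 0.216. The value for replicate 1 was the highest of all. These deviations rose with GC content in replicate 1 of both groups (correlations 0.269 and 0.38) and fell in the other libraries (-0.285 to -0.0902). The main fit did not take the numbers as pairs, and whether same-numbered libraries share a step was not tested. With a replicate block, 11 receptors were called higher and 7 lower, and 4657 and 4758 of all genes. The block added calls of RARA (0.31, adjusted p = 0.0206), RXRA (0.28, 0.0214), ESRRA (-0.38, 0.0138) and NR6A1 (-0.54, 0.0158). With the block and GC correction the receptors were 12 and 7, with RXRB (0.22, 0.0365) added, and all genes 4695 and 4829. PMA replicates 2 and 3, the closest pair within a group, added together as 1 left 8 receptors higher and 4 lower. Of all genes that fit called 3862 and 3732. Of 40 list genes taken by the rule, 32 kept their call under every alternative and 8 did not, namely GPS2, SIN3A, CYP2R1, SRD5A1, PLIN2, FUCA1, ACADM and ATP5F1B. The cause of these differences was not tested. No receptor under the FPKM minimum can be said to be absent at this depth.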
